A study of Mus musculus with 16 samples.

Results

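The genes described here are the clustered protocadherins of the mouse, which lie side by side on the forward strand of chromosome 18 (GRCm38, the build also called mm10). All 58 genes named for the alpha, beta and gamma clusters were taken. A gene's region was its first exon and the 1000 bp before its start site in the RefSeq annotation, and every CpG of such a region that had at least 10 reads in all 16 libraries was counted for that gene. The start sites ran from position 36930285 (Pcdha1) to 37819546 (Pcdhgc5), and the CpGs came from the stretch between 36.9 and 38 Mb. That stretch held 3405 measured CpGs, of which 3000 lay in a member region and none in more than 1. The member regions contain 6189 CpGs in the reference sequence. Of the 58 genes, 57 had at least 3 measured CpGs (5 to 112 per gene), out of 12783 protein-coding or member genes of the autosomes that met the same requirement. Pcdhb1 had no measured CpG among the 80 of its region and is named only.

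Clustered protocadherins are cadherin-like adhesion proteins of the cell surface that bind to copies of themselves on a neighbouring cell. In the alpha and gamma clusters, each large first exon has its own promoter and codes for an extracellular part, and it is spliced to constant exons shared by the whole cluster. The beta genes are single-exon genes without shared exons. Neurons switch on a varying selection of these promoters, which gives single neurons a surface identity and lets branches of 1 cell avoid each other. CTCF and cohesin bring a chosen promoter to distant enhancers, and methylation of a promoter and its first exon goes with silence of that promoter. The C-type genes at the ends of the alpha and gamma clusters (Pcdhac1, Pcdhac2, Pcdhgc3, Pcdhgc4 and Pcdhgc5) are used more uniformly across neurons than the other genes. Tet enzymes, Dnmt3b and Smchd1 are known to act on methylation or silencing at these clusters.

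The study asked how faithfully CpG methylation is kept while 1 cell grows into a population. Fibroblasts (mouse embryonic fibroblasts, MEFs) from a pair of sibling C57BL/6J embryos of stage E13.5 were immortalised by repeated passage through crisis, and the resulting cultures MEF-1 and MEF-2 are the parental lines. Single cells sorted from each by flow cytometry were grown into 7 clonal lines per family, and no line was treated or genetically changed. DNA of the 2 parental and 14 clonal lines was enriched with the SureSelectXT Methyl-seq probes, bisulfite-converted and sequenced (target capture bisulfite sequencing, tcBS-seq). According to the study MEF-1 is male and MEF-2 female, so embryo, sex and the history of each culture cannot be told apart. The 7 lines of a family come from 1 embryo and 1 culture, and a p-value for a family difference measures the spread between lines of these cultures only. The 2 parental libraries have no replicates.

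The libraries held 59243669 to 90633091 calls, where 1 call is 1 read over 1 CpG, and the median member CpG had 47 reads. Counts over a gene's region ranged from 79 to 10086 reads per library. Coverage of chromosome 18, set against the other autosomes of a library and the median MEF-2 clonal line, was 0.534 to 0.556 in MEF-1 clonal lines 1, 4 and 5. It was 0.925 to 0.990 in MEF-1 lines 2, 3, 6 and 7, 0.722 in the MEF-1 parental library and 0.988 to 1.008 in the MEF-2 libraries. Lines 1, 4 and 5 are therefore called the single-copy lines below. This is a statement on coverage and is not in the labels. MEF-2 clonal line 3 listed 5500212 CpGs, more than the 4519324 to 5049749 of the other libraries. The fibroblast label was checked here as methylation. RNA of these lines was also sequenced in the study and was not analysed here. Of 9 fibroblast markers, 3 were measured. Col1a2 and Vim were below 4% in every library, whereas Pdgfra was at 53.0% ± 1.76 in MEF-1 and 3.27% ± 1.46 in MEF-2 clonal lines (SD, n = 7 each).

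A methylation level is the percentage of reads called methylated, and a difference between 2 levels is given in points of that percentage. The member regions were mostly methylated in both families. The clonal lines of MEF-1 had a median member level of 66.7% and those of MEF-2 one of 71.4%, while the median over all 12783 genes was 8.38% and 8.08%. The beta genes averaged 64.2% ± 0.610 in MEF-1 and 67.9% ± 1.65 in MEF-2 lines, and the 12 alpha variable exons 63.1% ± 0.726 and 68.4% ± 1.21 (SD, n = 7 each). The 12 gamma A genes were at 64.8% ± 2.04 and 62.8% ± 2.86, and the 7 gamma B genes at 83.7% ± 2.09 and 84.0% ± 1.73. Parental levels were 61.7% and 63.2% for the alpha variable exons, 64.2% and 63.8% for the beta genes, 65.5% and 58.4% for gamma A and 83.1% and 81.9% for gamma B, in MEF-1 and MEF-2. Over whole regions, the gamma B genes had the highest level of these 4 groups in every library. In the 250 bp before the start they were below the gamma A genes. There, gamma B had 37.7% in MEF-1 and 35.0% in MEF-2 lines, against 54.5% and 41.9% in gamma A. The 2 alpha C-type genes lay lower, at 34.1% ± 3.80 in MEF-1 and 42.3% ± 3.98 in MEF-2 lines.

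**Figure D1:**
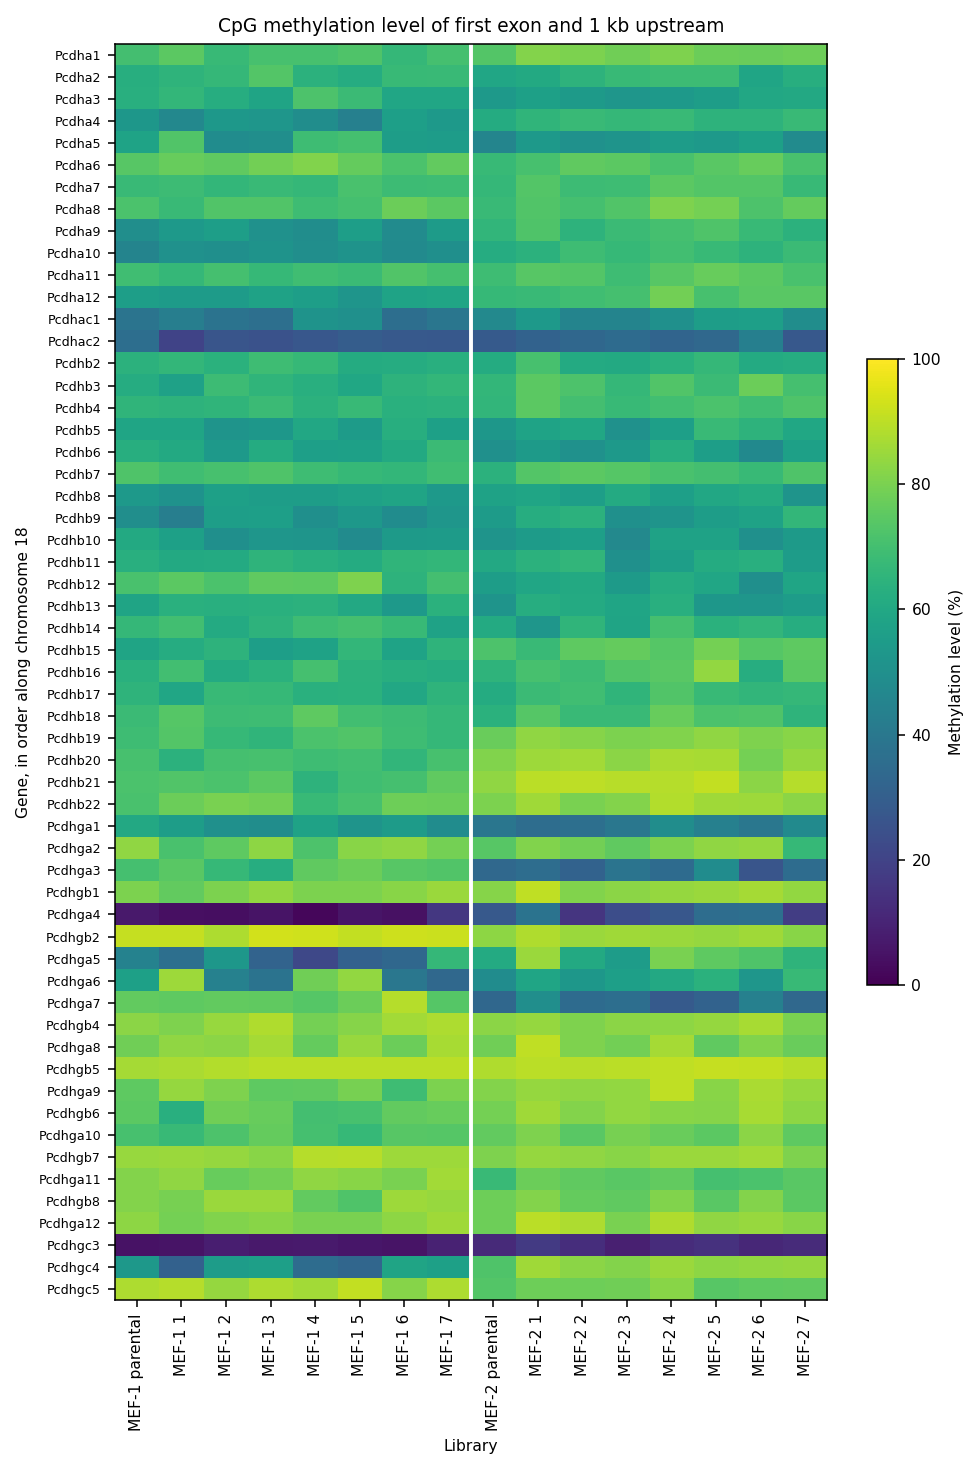
Heat map of the methylation level (percent, colour scale from 0 to 100) of the 57 measured clustered protocadherin genes, in their order along chromosome 18, in the 2 parental and 14 clonal libraries. Pcdhgc3 is low in all 16 libraries, the gamma B genes are high, and MEF-1 lines 1, 4 and 5 stand apart from the other MEF-1 lines at Pcdhga6 and Pcdhgc4.

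The level differed with the distance from the start site when the CpGs of a group were pooled. Bins can hold CpGs of different genes. In the beta cluster, the 69 CpGs in the 250 bp before the start were at 19.03% ± 1.79 in MEF-1 and 21.0% ± 1.44 in MEF-2 clonal lines, and the 547 CpGs lying 1000 to 2000 bp into the exon were at 71.3% ± 0.486 and 76.8% ± 1.41. The gamma B genes had the same order, with 37.7% ± 5.36 and 35.0% ± 4.49 before the start (29 CpGs) against 89.3% ± 1.16 and 89.3% ± 1.15 at 1000 to 2000 bp (339 CpGs). In both clusters, the start side was lower than the exon body in each of the 14 lines. The alpha variable exons had a smaller contrast, with 50.8% ± 1.47 and 48.8% ± 2.78 before the start (69 CpGs) and 76.8% ± 2.38 and 80.6% ± 1.02 at 1000 to 2000 bp (519 CpGs). The rise was not steady, as their 109 CpGs at 500 to 1000 bp were at 50.7% ± 1.90 and 59.6% ± 2.39. Nor was it steady in the beta genes, with 60.2% and 46.2% at 0 to 250 bp and 35.0% and 39.4% at 250 to 500 bp. In gamma A, the 34 CpGs before the start were at 54.5% ± 2.66 in MEF-1 and 41.9% ± 2.37 in MEF-2. Capture covered the groups unevenly: CpGs 1000 to 2000 bp into the exon numbered 10 in the gamma A genes, against 339 in gamma B.

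**Figure D2:**
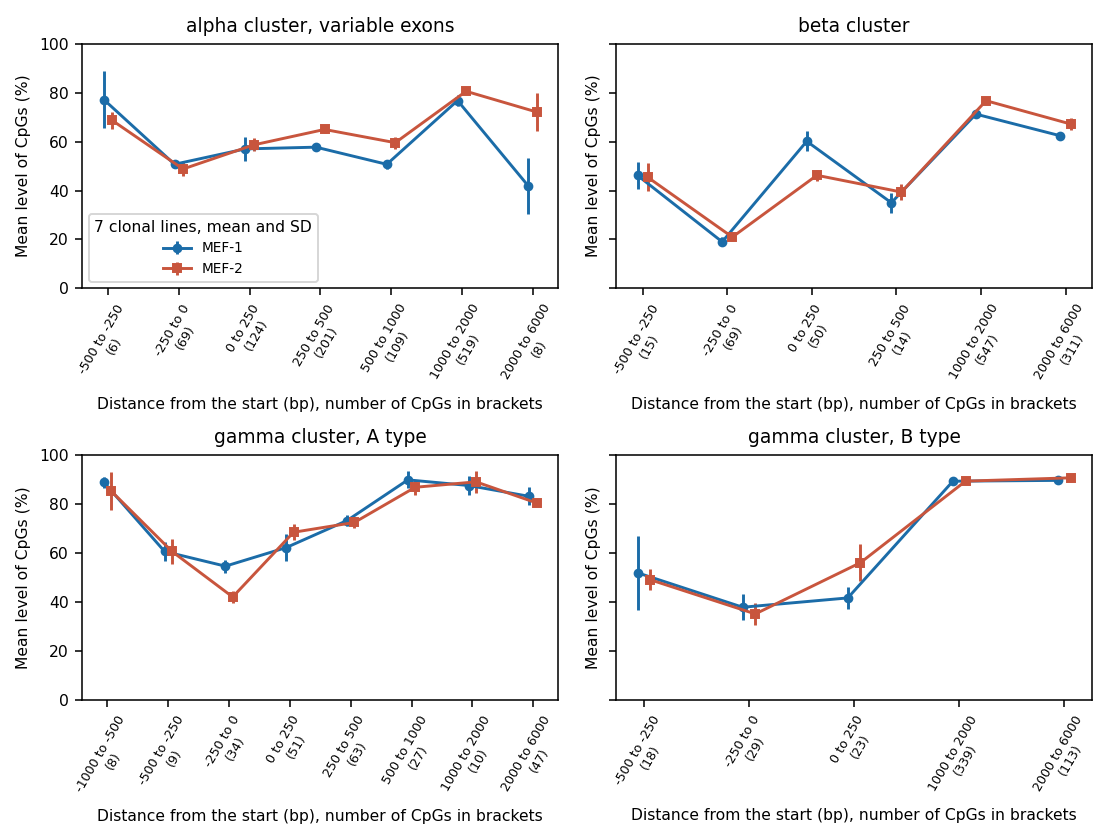
Mean methylation level (percent, y axis) by distance from the start site (bp, x axis; bins with at least 5 CpGs) for the alpha variable exons and the beta, gamma A and gamma B genes, with 1 colour per family and bars for the SD over 7 clonal lines. The beta and gamma B genes reach their lowest mean level in the 250 bp before the start in both families.

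The first comparison asked whether the families differ at these genes. For each gene, methylated and unmethylated reads of the 7 MEF-1 and 7 MEF-2 clonal lines were compared with a quasi-binomial logistic model, in which the spread between lines sets the error, and p-values were adjusted over all 12783 genes. Of the 57 measured members, 31 had an adjusted p under 0.05 (42.1% of all genes tested), 8 of them higher in MEF-1 (26% of all genes) and 23 higher in MEF-2 (16.1% of all genes). At an unadjusted p under 0.05 there were 35 (49.9% of all genes). The lines of the families did not overlap for 15 members, against 19% of all genes. The median gene of the series was under 10%, so the share was also taken among genes at a mean of 10 to 90%. There, 30 of 56 members were called, against 53.5% of all such genes, 8 of them higher in MEF-1 (31% of all such genes) and 22 higher in MEF-2 (22.5%). The members' median absolute difference was 6.33 points, against 2.40 over all genes and 6.93 over genes at 10 to 90%. Without MEF-1 lines 1, 4 and 5 the count was 26 (31.9% of all genes in that fit), of which 7 were higher in MEF-1 (19.6% of all).

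**Figure D3:**
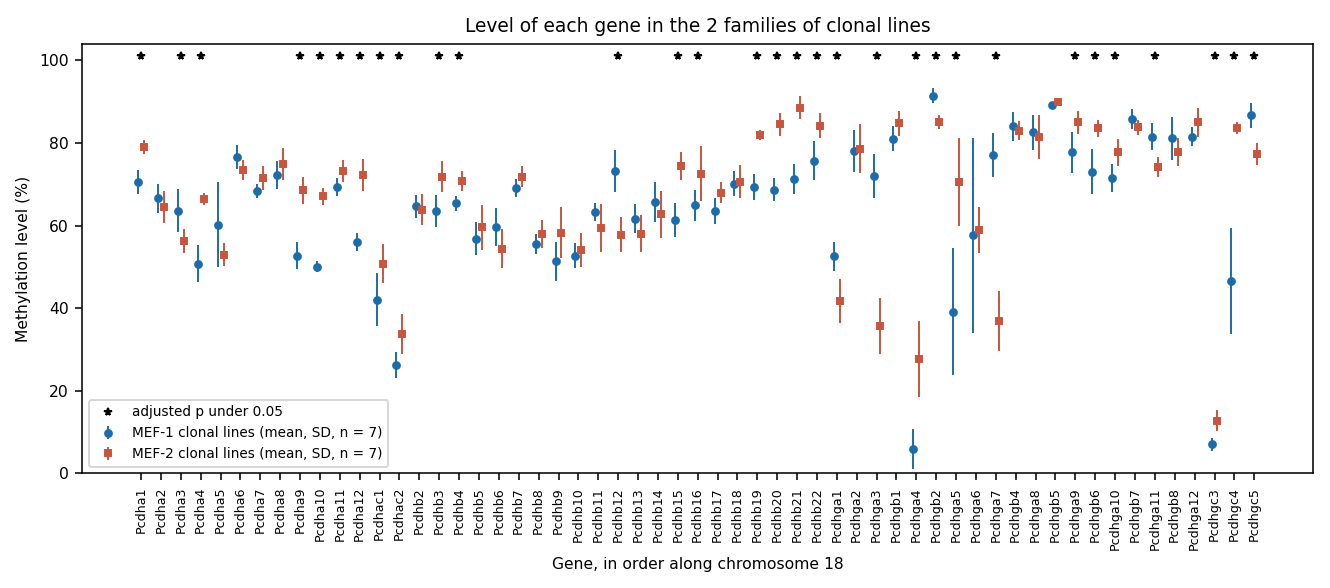
Mean methylation level (percent, y axis) of each measured gene in the 7 MEF-1 and the 7 MEF-2 clonal lines, with bars for the SD over lines, in order along chromosome 18 (x axis). Stars mark the 31 genes with an adjusted p under 0.05, and the widest gaps are in the gamma cluster at Pcdhga3, Pcdhga7 and Pcdhgc4.

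Of the 12 alpha variable exons, 7 differed between the families (42.1% of all genes), 6 of them higher in MEF-2 (16.1% of all). Before the start alone, 4 of 11 were called (42% of all genes with that region), 3 of them higher in MEF-1 (25.4% of all). These genes code for the alternative extracellular parts of the alpha proteins. Pcdha10 (first exon chr18:37005320-37007701, 77 CpGs) ranged from 47.7 to 51.5% over the MEF-1 lines, with a median of 49.9%, and from 64.1 to 69.6% over the MEF-2 lines, with a median of 67.5%. The parental libraries had 44.9% and 61.9%, and the 2 families did not overlap. The mean difference, given as MEF-1 minus MEF-2 here and below, was −17.1 points (adjusted p = 2.2e-07). Pcdha12 (chr18:37020230-37022623, 103 CpGs) had 52.3 to 58.8% in MEF-1 lines (median 55.9%) and 67.6 to 78.5% in MEF-2 lines (median 70.8%). Again no line of 1 family reached the other, and the parental libraries had 56.0% and 66.9%. Its difference was −16.2 points (adjusted p = 2.0e-05). Pcdha9 (chr18:36997880-37000360, 88 CpGs) had 48.3 to 56.1% in MEF-1 (median 53.9%) and 64.3 to 72.4% in MEF-2 lines (median 68.1%), with 49.5% and 65.8% in the parental libraries. The families did not overlap, with a difference of −15.8 points (adjusted p = 3.3e-05). The size for Pcdha9 depended on the region and weights, at −6.75 points with equally weighted CpGs and −29.0 points within 500 bp of the start, and it did not pass with the 1000 bp before the start alone (−14.9 points, adjusted p = 0.087). Pcdha1, the first gene of the cluster (chr18:36930285-36932672, 101 CpGs), was at 70.5% ± 2.84 in MEF-1 and 79.0% ± 1.67 in MEF-2 lines (SD, n = 7 each), a smaller difference of −8.51 points (adjusted p = 7.2e-05) with no overlap.

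The beta cluster had 9 of 21 measured genes called, a share near the 42.1% of all genes, and 8 of them were higher in MEF-2 (16.1% of all). Before the start alone, 2 of 12 were called higher in MEF-1 (25.4% of all genes with that region) and 2 higher in MEF-2 (16.6% of all). The beta genes are single-exon genes, each coding for a whole adhesion protein. Pcdhb21 (chr18:37513652-37516363, 57 CpGs) had 64.5 to 75.6% in MEF-1 lines (median 71.8%) and 82.5 to 90.9% in MEF-2 lines (median 89.1%), with parental levels of 71.7% and 83.3%. The families were apart in all 14 lines, by −17.3 points (adjusted p = 1.6e-05). Pcdhb20, its neighbour (chr18:37504264-37507660, 48 CpGs), had 64.1 to 70.9% (median 69.8%) and 79.1 to 87.1% (median 85.4%), and the parental libraries had 71.0% and 81.0%. It too showed no overlap, with a difference of −15.8 points (adjusted p = 1.5e-05). Pcdhb22, the last gene of the cluster (chr18:37518353-37521419, 44 CpGs), had 75.7% ± 4.69 and 84.2% ± 3.02, a difference of −8.49 points (adjusted p = 0.0066). The 1 beta gene that was higher in MEF-1 was Pcdhb12 (chr18:37435621-37438654, 52 CpGs), with 64.7 to 80.7% in MEF-1 (median 74.8%) and 49.8 to 62.1% in MEF-2 lines (median 59.1%). Its lines did not overlap and its difference was 15.5 points (adjusted p = 0.00071), against parental levels of 71.5% and 55.9%. Pcdhb2, the first measured gene of the cluster (43 CpGs), had 64.7% ± 2.74 and 63.8% ± 3.76 and did not pass the test (adjusted p = 0.78).

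In the gamma cluster, 8 of 12 A genes were called, 4 in each direction, and 2 of 7 B genes, 1 in each direction, next to 26% of all genes higher in MEF-1 and 16.1% higher in MEF-2. Before the start, the gamma A calls were 4 higher in MEF-1 (25.4% of all genes with that region) and 1 higher in MEF-2 (16.6% of all). In the exon they were 2 higher in MEF-1 (10.7% of all genes with that region) and 5 higher in MEF-2 (6.86% of all). The 5 members with the largest differences were all gamma genes. Pcdhga7 (chr18:37714834-37717374, 8 CpGs) had 73.6 to 88.8% in MEF-1 lines (median 75.4%) and 28.4 to 49.6% in MEF-2 lines (median 35.1%). The parental libraries had 75.8% and 33.3%, close to their own clonal lines, and the difference was 40.3 points (adjusted p = 7.9e-06). Pcdhga3 (chr18:37674335-37676907, 22 CpGs) had the same direction, with 62.4 to 77.5% (median 73.9%) against 26.2 to 48.5% (median 35.2%) and parental levels of 70.6% and 34.0%. In both genes every MEF-1 line lay above every MEF-2 line, for Pcdhga3 by 36.2 points in the mean (adjusted p = 1.1e-05). That difference was 19.1 points in the 1000 bp before the start of Pcdhga3, and with at least 20 reads per CpG, and 45.4 points in its exon. Pcdhga5 (chr18:37694375-37696924, 8 CpGs) went the other way, with 21.7 to 66.7% in MEF-1 (median 33.3%) and 55.2 to 85.1% in MEF-2 lines (median 72.5%). Its families overlapped, the difference was −31.4 points (adjusted p = 0.0068), and it did not pass without MEF-1 lines 1, 4 and 5 (−24.3 points, adjusted p = 0.056) or with CpGs of at least 5 reads (−11.0 points, adjusted p = 0.26). In the exon of Pcdhga5 alone it was −49.3 points. Pcdhga4 (chr18:37685237-37687817, 7 CpGs) was the least methylated variable exon in MEF-1, with 1.89 to 16.4% over the lines (median 4.60%), against 15.4 to 37.9% in MEF-2 lines (median 27.2%). The difference was −21.8 points (adjusted p = 0.00089), with an overlap of 1 MEF-1 line, and it did not pass with at least 20 reads per CpG (−14.2 points, adjusted p = 0.076). For Pcdhga4 it was −12.0 points before the start and −34.4 points in the exon. Pcdhga1, the first gamma gene (5 CpGs), was at 52.6% ± 3.52 and 41.7% ± 5.32, a difference of 10.9 points (adjusted p = 0.0090).

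The 5 C-type genes were all called (42.1% of all genes), and their levels differed widely among themselves. Pcdhgc3 (chr18:37806410-37808977, 37 CpGs) was low in every library, with 5.28 to 9.67% in MEF-1 (median 6.81%), 8.90 to 17.1% in MEF-2 lines (median 12.5%) and 5.05% and 11.7% in the parental libraries. It held 12 of the 34 member CpGs that were under 10% in all 14 lines, and the families differed by −5.78 points (adjusted p = 0.0025). Pcdhgc4 (chr18:37815079-37817983, 74 CpGs) had 30.9 to 58.2% in MEF-1 (median 55.3%) and 81.4 to 85.8% in MEF-2 lines (median 83.8%), without overlap. The difference was −37.0 points (adjusted p = 3.2e-05) and −26.9 points without MEF-1 lines 1, 4 and 5. Pcdhgc5 (chr18:37819546-37822134, 34 CpGs) was the 1 C-type gene higher in MEF-1, with 81.8 to 90.6% (median 87.5%) against 74.1 to 82.4% (median 77.8%), a difference of 9.31 points (adjusted p = 0.00073). Pcdhac1 (chr18:37090136-37092571, 15 CpGs) had 36.1 to 51.3% (median 39.1%) and 45.03 to 56.5% (median 50.0%), a difference of −8.65 points (adjusted p = 0.0078). Pcdhac2 (chr18:37143678-37146530, 15 CpGs) had 20 to 29.6% (median 27.1%) and 27.6 to 43.3% (median 33.6%), a difference of −7.59 points (adjusted p = 0.013). The lines of Pcdhgc3, Pcdhgc5, Pcdhac1 and Pcdhac2 overlapped between the families.

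Both sides of the start site were then tested apart. With the first exon alone, 31 of 55 members were called (17.6% of all genes with this region), 7 higher in MEF-1 (10.7% of all) and 24 higher in MEF-2 (6.86% of all). For single sides of the start, the share among genes at a mean of 10 to 90% was not taken. Over whole regions that share was 53.5%, near the 53.6% of members. With the 1000 bp before the start alone, 18 of 40 members were called (42% of all), 12 higher in MEF-1 (25.4% of all) and 6 higher in MEF-2 (16.6% of all). Of the 38 members measured on both sides, 9 were called on both (7.19% of all genes measured on both sides), and 8 of these had the same direction (71.3% of all genes called on both). The exception was Pcdhac1: its 12 exon CpGs were at 36.8% ± 6.79 in MEF-1 and 60.4% ± 5.37 in MEF-2 lines (adjusted p = 0.00014), and its 3 CpGs before the start at 59.0% ± 11.2 and 26.2% ± 9.51 (adjusted p = 0.00087). For Pcdha10, the exon differed by −18.0 points, whereas its 7 CpGs before the start had 42.2% ± 10.3 and 40.5% ± 11.3 (adjusted p = 0.82). Before the start alone, Pcdha1 (−6.15 points, adjusted p = 0.073) and Pcdhb12 (6.87 points, adjusted p = 0.62) did not pass, Pcdhb22 differed by −32.5 points (adjusted p = 0.0028) and Pcdhb2 by 11.1 points (adjusted p = 0.0046). Pcdhgc4 was lower in MEF-1 on both sides, with 21.3% ± 14.6 against 73.8% ± 4.18 before the start (SD, n = 7 each). Pcdhga7 had 6 of its 8 CpGs before the start, at 83.7% ± 4.31 and 36.4% ± 8.76, and too few in the exon for a value there.

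Windows of 500 bp on either side of the start, a choice made after seeing the data, held at least 3 CpGs for 48 members. Of these, 26 were called between the families (34.6% of all start windows tested), 13 higher in MEF-1 (21.9% of all) and 13 higher in MEF-2 (12.7% of all). The windows named in this paragraph were picked after their values were seen. The last genes of the cluster lay at opposite ends. Pcdhgc5 had 58.8% ± 19.6 in MEF-1 and 14.6% ± 8.85 in MEF-2 lines over 9 CpGs (44.2 points, adjusted p = 0.0012), and Pcdhgc4 had 23.3% ± 17.004 and 78.0% ± 3.36 over 39 CpGs (−54.6 points, adjusted p = 8.1e-05). At both genes, the MEF-1 mean pools the single-copy lines with the other MEF-1 lines, which did not overlap and are given apart below. Both differences are smaller without the single-copy lines. Pcdhb5 had 28.2% ± 4.11 and 10.6% ± 2.63 at its start (17.6 points), although its whole region had an adjusted p of 0.31.

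Single CpGs were tested with the same model over 1319716 CpGs of the autosomes. Of the 3000 member CpGs, 875 were called (20.3% of all CpGs), 366 higher in MEF-1 (11.7% of all) and 509 higher in MEF-2 (8.63% of all). Among CpGs at a mean of 10 to 90%, 833 of 1933 member CpGs were called, against 49.4% of all such CpGs. Each of the 57 genes had at least 1 called CpG (69.1% of all genes), where the median member had 49 measured CpGs and the median gene 20. Of the called CpGs, 219 differed by 50 points or more (4.52% of all CpGs). The following CpGs were chosen for their size. Position 37444594 in the exon of Pcdhb13, 2077 bp after its start, was at 92.5 to 100% in the 7 MEF-1 lines and 0 to 4.65% in the 7 MEF-2 lines, with 95.1% and 5.06% in the parental libraries. It was the 1 member CpG at 90% or more in all lines of one family and under 10% in all lines of the other. The region of Pcdhb13 as a whole did not pass the test, with 61.7% ± 3.58 and 58.0% ± 4.43. In Pcdha10, position 37005610 (290 bp after the start) was at 3.00 to 32.1% in MEF-1 and 96.4 to 98.2% in MEF-2 lines.

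The second comparison set the 3 single-copy MEF-1 lines against lines 2, 3, 6 and 7, which had chromosome 18 at the coverage of other autosomes. Over whole gene regions, the quasi-binomial test called no member (0% of all genes), with 16 of 57 at an unadjusted p under 0.05 (7.97% of all genes). On simulated data with these 3 and 4 lines, this test did not recover changes that limma recovered in part, so its count of 0 says nothing on whether the members differed. The limma test of the levels called 2, Pcdhga6 and Pcdhgc4 (0.102% of all genes). The p-values of this comparison, here and below, treat the lines of a set as independent. On the other autosomes, pairs of lines 1, 4 and 5 differed by 12.0 points in the mean. Pairs of lines 2, 3, 6 and 7 differed by 15.1 points and pairs across the 2 sets by 15.96. Whether lines 1, 4 and 5 share descent was not tested, and here it cannot be told apart from their coverage of chromosome 18. The 2 sets of lines did not overlap for 21 of 57 members, against 10.8% of all genes and 27.3% of the 333 genes of chromosome 18, members included. Pcdhga6 (chr18:37707101-37709652, 10 CpGs) had 85.5, 78.3 and 83.7% in lines 1, 4 and 5 and 44.0, 38.2, 39.8 and 33.7% in lines 2, 3, 6 and 7. The single-copy lines were all higher, and the parental library was between them at 56.8%. Pcdhgc4 had 30.9, 35.2 and 33.0% in lines 1, 4 and 5 and 55.3, 56.6, 58.2 and 57.0% in the others, with 53.3% in the parental library. Here the single-copy lines were all lower (adjusted p = 0.13 in the quasi-binomial test). Pcdha5 (chr18:36960276-36962785, 86 CpGs) had 72.8, 69.0 and 70.5% against 48.8, 49.3, 55.6 and 55.4%, and 57.9% in the parental library. Pcdhac1 had 42.8, 51.3 and 50.4% against 38.3, 36.6, 36.1 and 39.1%, so that line 1 was nearer to the other 4 lines than lines 4 and 5 were.

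The same lines were compared near the start sites. In the windows of 500 bp on either side, 24 of 48 members did not overlap between the 2 sets of lines (9.87% of all start windows, 23% of those of the other chromosome 18 genes). For 12 of the 48 the means were also 20 points or more apart, against 0.252% of all start windows and 7 of 239 (2.93%) of other chromosome 18 genes. Restricted to windows at a mean of 10 to 90%, the counts were 12 of 47 members and 7 of 75 other chromosome 18 genes (9.33%). Of the 12, 7 were lower (0.13% of all windows) and 5 higher (0.122% of all) in the single-copy lines. The limma test called 7 members (0.163% of all), 4 of them lower (0.0732% of all), while 22 had an unadjusted p under 0.05 in the quasi-binomial test (7.05% of all start windows). That test called 0 after adjustment, which carries no information here for the reason given above. Both the windows and the limit of 20 points were chosen after seeing the data.

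The genes of this paragraph were chosen after their values were seen, as the widest of these gaps. Pcdhgb8, a transcribed pseudogene in the annotation, had 7.90, 9.98 and 7.37% in lines 1, 4 and 5 over 15 CpGs and 53.8, 44.2, 48.9 and 45.1% in lines 2, 3, 6 and 7. The parental library was at 42.2%, and MEF-2 lines had 9.14 to 23.2%. Pcdhgb6 (15 CpGs) had 3.06, 3.87 and 1.67% against 42.5, 29.8, 37.1 and 33.9%, with 22.4% in the parental library. In both, the start was nearly unmethylated in the single-copy lines, and no line of one set reached the other. Pcdhgc4 (39 CpGs) had 3.93, 7.97 and 4.42% against 34.5, 32.6, 39.3 and 40.6%, and 35.2% in the parental library. Pcdhga6 (9 CpGs) had the opposite order, with 82.1, 76.6 and 80.8% against 32.9, 28.8, 30.2 and 22.0%, and 49.7% in the parental library. Pcdha5 (28 CpGs) had 72.6, 68.9 and 66.3% against 32.2, 33.2, 38.4 and 39.1%. In these windows the single-copy lines were the methylated set. Pcdhgc5 (9 CpGs) had 76.9, 71.8 and 85.9% against 37.4, 51.1, 52.3 and 36.0%, while the MEF-2 lines ranged from 2.92 to 26.4%. Pcdhga10 (20 CpGs) had 27.0, 23.8 and 31.7% against 55.1, 59.97, 59.9 and 56.0%, and Pcdhb4 (10 CpGs) had 56.2, 53.5 and 52.9% against 25, 27.2, 26.0 and 24.0%. Adjusted p-values of the limma test were 0.0087 for Pcdhgb8, 0.019 for Pcdhgb6, 0.0099 for Pcdhgc4, Pcdha5 and Pcdhga10, 0.0061 for Pcdhga6, 0.0014 for Pcdhb4 and 0.12 for Pcdhgc5.

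**Figure D4:**
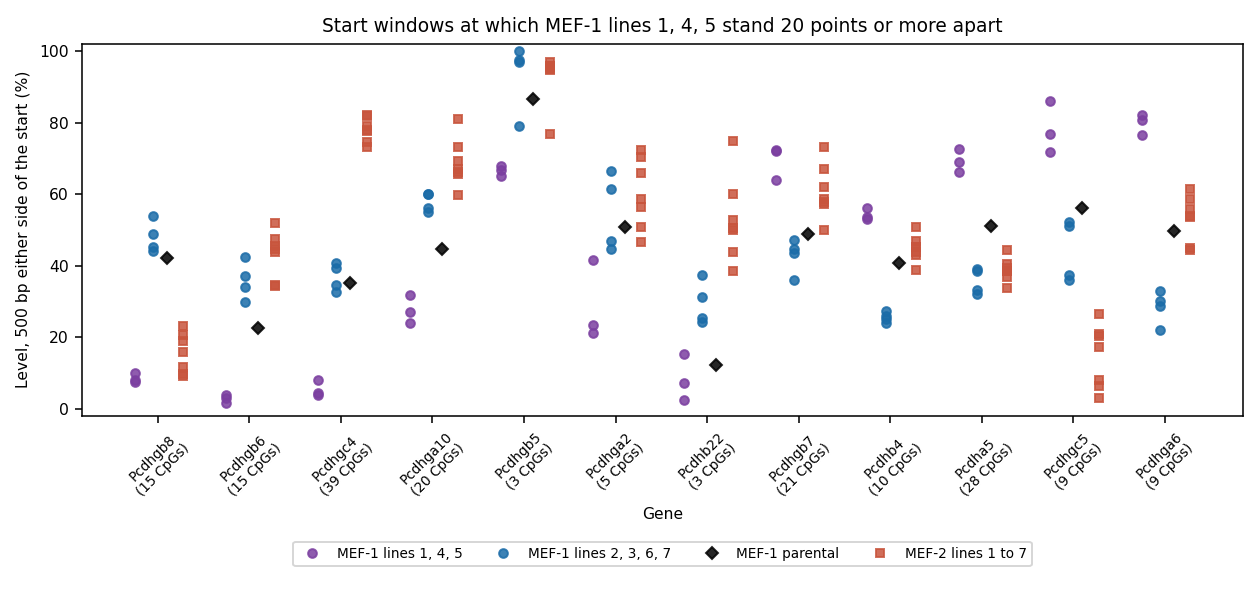
Methylation level (percent, y axis) within 500 bp of the start of the 12 members (x axis) whose single-copy MEF-1 lines (1, 4, 5) and other MEF-1 lines (2, 3, 6, 7) did not overlap and were 20 points or more apart, 1 point per library, with the MEF-1 parental library and the MEF-2 clonal lines beside them. The single-copy lines are the lower set for 7 genes and the higher set for 5.

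The same contrast appeared when the 3000 member CpGs of each library were sorted by level. Intermediate levels of 40 to 60% made up 5.63, 5.60 and 5.07% of member CpGs in lines 1, 4 and 5 and 17.9, 16.3, 19.4 and 17.2% in lines 2, 3, 6 and 7. The MEF-2 lines had 16.9% ± 1.46 (SD, n = 7), so that the single-copy lines were below all 11 other clonal lines. Levels of 10 to 90% made up 28.4% ± 1.36 (SD, n = 3), 44.1% ± 1.62 (SD, n = 4) and 43.1% ± 3.09 (SD, n = 7) in the same order. The 2 parental libraries had more, with 57.3% for MEF-1 and 64.3% for MEF-2. The median member CpG had 25 to 28 reads in the single-copy lines and 47 to 63 in the other MEF-1 lines. With every CpG thinned to 10 reads, the shares at 10 to 90% were 29.7% ± 1.08 and 44.1% ± 1.45. Chromosome 18 outside this stretch showed the same order: of its CpGs at a mean of 10 to 90%, 6.47% ± 0.264 were at 40 to 60% in the single-copy lines and 26.7% ± 1.19 in lines 2, 3, 6 and 7, next to 8.23% ± 0.460 and 26.8% ± 1.51 for member CpGs. On the other autosomes the shares were 22.0% ± 0.756 and 23.7% ± 0.722. Here and below, the other autosomes include those that the study left out, besides chromosome 18, as aneuploid in at least 1 line.

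**Figure D5:**
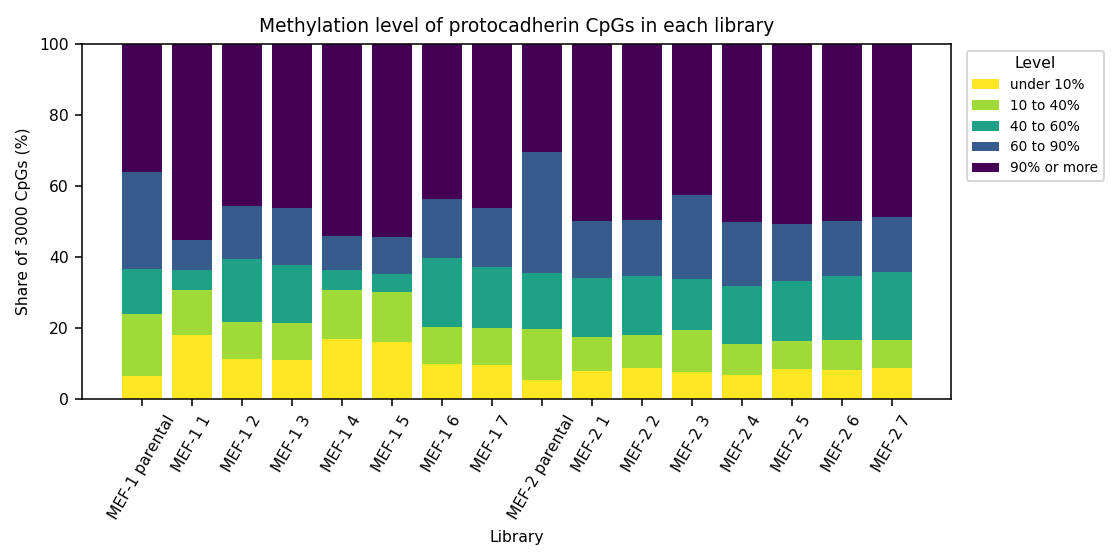
Share of the 3000 member CpGs (percent, y axis) at levels under 10, 10 to 40, 40 to 60, 60 to 90 and 90% or more in each of the 16 libraries (x axis). The band at 40 to 60% is between 5.07 and 5.63% in MEF-1 lines 1, 4 and 5 and between 16.3 and 19.4% in the other MEF-1 clonal lines.

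At 86 member CpGs in 34 genes, all of lines 2, 3, 6 and 7 were at 40 to 60%. In the single-copy lines, 11 of these CpGs were under 10% in all 3 lines, 17 were at 90% or more in all 3, and 0 were at 40 to 60% in all 3. No member had CpGs of both kinds, all low and all high, but most members had too few such CpGs to hold both. The share over other genes was not taken. On the other autosomes, the same selection gave 15705 CpGs, of which 0.395% were all low, 1.35% all high and 19.8% all at 40 to 60% in lines 1, 4 and 5. Chromosome 18 outside this stretch had higher shares than the members: of 439 such CpGs, 17.8% were all low, 31.9% all high and 0.228% all at 40 to 60%, against 12.8%, 19.8% and 0% for the members. Pcdha5 had 5 of the 86 CpGs, 4 of them at 90% or more in all single-copy lines, and Pcdha4, named after its values were seen, had 5, 3 of them under 10%. Pcdhgc4 also had 3 that were under 10%.

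Differences among lines of a family were then described. Over whole regions, 1 member had a range of 50 points or more over the 7 MEF-1 lines (0.0939% of all genes), which was Pcdhga6 at 51.8 points, and it fell under that limit without line 1 or without line 7. None reached it over the MEF-2 lines (0.203% of all genes), where Pcdhga5 had the widest range, of 29.9 points. Pcdhb16 (chr18:37477768-37483038, 35 CpGs) was the beta gene with the widest range over the MEF-2 lines, of 21.5 points, from 62.4 to 83.9% (median 72.9%), against 61.1 to 70.5% (median 64.0%) in MEF-1 lines. At a limit of 30 points the counts were 2, Pcdhga6 and Pcdhga5 (1.54% of all genes, 3.3% of those at 10 to 90%) and 0 (2.48% and 5.33%). Single CpGs varied more. A range of 50 points or more was found for 988 of 3000 member CpGs in MEF-1 (11.5% of all CpGs) and 747 in MEF-2 (16.9% of all). Among CpGs at a mean of 10 to 90% these were 970 of 1933 (28.8% of all such CpGs) and 720 (41% of all). Levels under 10% in at least 1 line and 90% or more in another were found for 106 member CpGs in MEF-1 (0.621% of all CpGs) and 36 in MEF-2 (1.18% of all), and each of them had a mean of 10 to 90% (1.62% and 3.07% of all such CpGs). Within MEF-1 lines 2, 3, 6 and 7 there were 7 such CpGs (0.328% of all CpGs), and within lines 1, 4 and 5 there were 8 (0.0111% of all, 0.156% on chromosome 18 outside the members). Among the 25635 CpGs of chromosome 18 outside the members, 642 were of this kind in MEF-1 lines and 263 in those of MEF-2.

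Variance between lines beyond read sampling was scaled so that equal lines give 0 and lines either fully methylated or unmethylated give the largest value. That largest value rises as the number of lines falls, so sets of 7, 4 and 3 lines differ in scale. The share was 0.236 ± 0.028 for the member CpGs of MEF-1 lines and 0.162 ± 0.013 for those of MEF-2 (error from leaving out each line). It was 0.224 ± 0.027 and 0.144 ± 0.012 for chromosome 18 outside the stretch and 0.110 ± 0.0095 and 0.150 ± 0.011 on the other autosomes. Within lines 2, 3, 6 and 7 the member value was 0.120, and within lines 1, 4 and 5 it was 0.156. On the other autosomes these values were 0.118 and 0.0583 in the same order. The mean absolute difference over member CpGs was 9.54 points between pairs of single-copy lines, 11.3 points between pairs of lines 2, 3, 6 and 7, and 18.5 points between the 2 sets. Pairs of MEF-2 lines differed by 13.6 points and pairs of lines from different families by 23.5 points. Over the CpGs of other autosomes at a mean of 10 to 90%, the values were 12.0, 15.1, 15.96, 18.1 and 32.8 points in the same order. The member values include CpGs near 0 and 100%, so their size cannot be set against these directly. No pair of libraries was closer than 9.15 points.

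A parental culture is a mixture of cells, and its level was set against the mean of its 7 clonal lines without a test. No member was 20 points or more from that mean in MEF-1 (0.0626% of all genes) or MEF-2 (0.156% of all). At 10 points the counts were 0 in MEF-1 (1.78% of all genes, 3.82% of those at 10 to 90%) and 2, Pcdhgc4 and Pcdhga6, in MEF-2 (2.61% and 5.66%). The MEF-1 parental library was farthest away at Pcdhac2, with 36.2% (95% Wilson interval 30.8 to 42.0% over 279 reads) against a clonal mean of 26.2%. Pcdhb10 followed with 60.6% (58.5 to 62.7%, 2086 reads) against 52.7% and Pcdhga1 with 60.3% (51.7 to 68.3%, 131 reads) against 52.6%. All 3 were above every clonal line of MEF-1. The MEF-2 parental library had 72.3% (70.7 to 73.8%, 3235 reads) at Pcdhgc4 against 83.6%, 48.7% (43.2 to 54.3%, 308 reads) at Pcdhga6 against 59.0%, and 61.0% (54.7 to 67.0%, 236 reads) at Pcdhga5 against 70.5%. In MEF-2 the parental level was below the clonal mean at 54 of 57 members, with a median of −4.29 points, and below all 7 lines at 25 (8.70% of all genes). Over all genes it was below the mean at 53.9%, with a median of −0.118 points. In MEF-1 the parental level was below the mean at 36 members, with a median of −0.522 points, and below all 7 lines at 3 (9.46% of all genes). Over all genes it was below the mean at 54.3%, with a median of −0.132 points. These intervals cover counting error only, as reads of amplified DNA are not independent molecules.

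In a single cell with 2 copies, a CpG can be at 0, 50 or 100%, and a clonal level within 0 to 10, 40 to 60 or 90 to 100% was counted as faithful to its founding cell. The same bounds were used for MEF-1 lines 1, 4 and 5, although the middle band has no such meaning for a chromosome at 1 copy. They were also used for the other autosomes that the study left out as aneuploid. Member CpGs were faithful at 75.7% ± 2.32 in MEF-1 and 74.3% ± 4.18 in MEF-2 lines (SD, n = 7 each), below the 83.6% ± 1.31 and 82.8% ± 1.77 of the other autosomes. Among CpGs at a mean of 10 to 90%, the shares were 65.3% ± 3.17 and 64.4% ± 5.38 for members and 64.5% ± 2.52 and 64.0% ± 3.33 on the other autosomes. In lines 1, 4 and 5, the member share was 77.9% ± 1.63 with the band of 40 to 60% and 72.2% ± 1.34 without it (SD, n = 3), and in lines 2, 3, 6 and 7 it was 74.0% ± 0.810 with the band (SD, n = 4). All 14 lines were at 90% or more at 461 member CpGs (12.5% of all CpGs) and under 10% at 34 (21.9% of all).

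Other genes around this system were taken from lists. Of 10 non-clustered protocadherins, which are adhesion proteins encoded elsewhere in the genome, 6 were measured and had levels of 0.821 to 42.5% over all libraries. Pcdh17 was the 1 that was called, with 23.2% ± 1.46 in MEF-1 and 18.98% ± 3.13 in MEF-2 lines (adjusted p = 0.026). Of 15 regulators known to act on clustered protocadherin promoters, 9 were measured and 4 called, all higher in MEF-1, next to the 42.1% of all genes that were called and the 26% that were higher in MEF-1. Tet3, a DNA demethylase, had 68.8% ± 8.26 and 55.8% ± 6.03 (adjusted p = 0.020). Tet1, of the same family, had 42.2% ± 5.22 and 31.2% ± 3.75 (adjusted p = 0.0038), and Rad21, a subunit of cohesin, had 52.2% ± 5.89 and 43.7% ± 4.83 (adjusted p = 0.0496). Smchd1 was at 1.92% ± 1.17 and 1.24% ± 0.455, and 5 of the 9 were under 10% in all libraries.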

How the data were processed

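Methylated and unmethylated reads were counted per CpG in 16 tcBS-seq libraries. Per the study's methods and the submitters' processing notes, the authors trimmed reads (Trim Galore 0.6.0), aligned them to mm10 with Bismark, kept reads above a mapping-quality limit, merged both strands of a CpG and worked in R 3.6.1. Removal of duplicate reads is not given in the sources used here. The deposited values are whole-number counts of unmethylated and methylated reads, with no normalization. A deposited table of the series repeats these counts, without chromosome 18, at all of its rows, and 2 of its columns per sample (coverage and methylated percentage) and its fidelity and neighbour scores were not used.

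From these counts, a CpG was kept if it had 10 or more reads in each of the 16 libraries. All 3405 positions of the protocadherin stretch were a C of a CpG in GRCm38. A region was the first exon plus 1000 bp before the start in RefSeq (GRCm38.p6), a gene needed at least 3 CpGs, and its level was methylated over all reads. Families were compared by a quasi-binomial logistic F-test with a dispersion of at least 1 (Python 3.11.15, scipy 1.17.1), adjusted after Benjamini and Hochberg over all autosomal genes or CpGs. Alternatives used limma 3.58.1 in R 4.3.3, 5 or 20 reads, each side of the start, thinning, and single lines left out. A further alternative left out member CpGs in 100-base stretches that recur after conversion within the protocadherin stretch. The tests were tried on simulated data. Groups and line numbers came from the labels, and coverage gave the single-copy lines. Counts of 59243669 to 90633091 calls per library set the precision.

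The members, lists and tests were chosen with earlier results of these data known. Named were the 10 called members with the largest family difference, the 5 widest ranges between lines in each family, the C-type genes, the first and last measured gene of each cluster, called members of the copy comparison, the 3 members farthest from each parental level, and up to 3 called genes of the 2 lists of related genes. Others are said to be chosen after their values were seen.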

Additional observations from a re-analysis of the deposited data

Results flagged for a closer look

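In 64 groups of 7 clonal lines, the gap of the highest or lowest line to its nearest neighbour was divided by the whole range, and 5 groups exceeded Dixon's 95% critical value for 7 values. Chance alone gives about 1 such group in 20 only for independent groups that were not chosen by value. These groups were the named members, some picked for wide ranges, the clusters and summaries over the member CpGs. That rate therefore does not apply to them. For 3 genes, 1 line stood apart from the rest of its family. Pcdhb21 was at 82.5% in MEF-2 line 6 and at 88.7 to 90.9% in the other 6 lines. Pcdhga4 was at 16.4% in MEF-1 line 7 and at 1.89 to 5.78% in the others. Pcdhga7 was at 88.8% in MEF-1 line 6, against 73.6 to 77.5%. MEF-2 line 3 stood apart over the 3000 member CpGs, with 65.2% at faithful levels against 73.7 to 77.0% in the other MEF-2 lines, and with 49.9% at levels of 10 to 90% against 40.6 to 43.0%. It stood apart in the same direction elsewhere, with faithful levels at 77.9% against 81.7 to 84.0% on chromosome 18 outside the stretch and at 79.0% against 82.6 to 84.4% on the other autosomes. This library also listed the most CpGs of all 16, and the part of that in its levels was not tested.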

How the results depend on the processing

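The family count of 31 of 57 members was 28 to 32 when each clonal line was left out in turn, 19 of 48 members with at least 20 reads per CpG (41.4% of all genes) and 18 of 40 with the 1000 bp before the start alone (42% of all). Its limma counterpart gave 32 (40.4% of all). The line numbers do not pair the families, since same-numbered lines had correlations of −0.0124 to 0.0119 over 5781 genes and 0 of 7 were closest to their own number. With the number as a replicate block the count was 34 (36.8% of all). Called CpGs numbered 775 to 837 with a line left out and 511 of 1736 with at least 20 reads. Shares over all CpGs at these settings are not given, so these counts cannot be set against the background.

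Mean differences by cluster (MEF-1 minus MEF-2) turned in the alpha C-type genes (−8.12 points) to 10.4 points with at least 20 reads, where 1 gene was left, and to 32.8 points before the start. The alpha variable exons turned from −5.28 to 4.65 points before the start, and were at −3.44 points without recurring stretches. Before the start, gamma B turned from −0.339 to 2.90 points, gamma A moved from 1.98 to 11.4 and gamma C-type from −11.2 to −29.7 points. With the first exon alone, gamma A turned to −7.39 points and alpha C-type moved to −15.6 points, and gamma C-type moved to −16.8 points with at least 20 reads. With a line left out, the differences were −5.45 to −4.93 (alpha), −9.09 to −6.85 (alpha C-type), −4.13 to −3.40 (beta), 1.41 to 2.71 (gamma A), −0.713 to 0.214 (gamma B) and −12.0 to −10.3 points (gamma C-type). Pcdha10 turned to 1.68 points before the start (adjusted p = 0.82). Calls were lost for Pcdha9 before the start (−14.9 points, adjusted p = 0.087), for Pcdhga5 with at least 5 reads (−11.0 points, adjusted p = 0.26) and for Pcdhga4 and Pcdhga5 as given above. The cause was not tested.

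The comparison of lines 1, 4 and 5 with 2, 3, 6 and 7 gave 2 calls with limma (0.102% of all genes), 5 with limma on equally weighted CpGs (0.469%) and 7 with limma on start windows (0.163%). The 0 calls of the quasi-binomial test, with all lines or with any left out, say nothing on stability, for the reason given with that comparison. The 1 member with a range of 50 points or more became 0 with at least 5 or 20 reads, without lines 1, 4 and 5, and without line 1 or line 7 (0 to 1 over single lines left out), 2 on either side of the start alone, 2 at a limit of 30 points and 0 at 70. The 0 members at 20 points from the parental level stayed 0 with each line left out and became 2 at 10 points.

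Faithful shares were 75.0 to 76.0% (MEF-1) and 73.8 to 75.8% (MEF-2) with a line left out. They were 62.9 and 57.0% without the middle bounds, 94.3 and 93.8% with wider bounds, and 82.6 and 80.2% thinned to 10 reads, and MEF-1 had 78.4% before the start. CpGs at opposite extremes numbered 74 to 106 and 24 to 36 with a line left out, 58 and 17 with at least 20 reads, and 15 and 5 before the start. MEF-2 had 59 with at least 5 reads and 63 when thinned, and MEF-1 had 7 without lines 1, 4 and 5. The settings with at least 20 reads and before the start kept fewer CpGs than the main count. Shares over all CpGs at these settings are not given, so the counts cannot be set against each other or the background. Levels of 10 to 90% made up 22.3% in lines 1, 4 and 5 and 48.4% in MEF-2 before the start. Of the remaining alternatives, 302 values for comparisons and 244 for single genes stayed within the limits of a change. A count could move by a set factor and stay within these limits. The 302 include the counts of 0 of the quasi-binomial test of lines 1, 4 and 5, which say nothing on stability. Of the 302, 4 had the other sign, all for gamma B (0.0265 to 1.19 points). Depth is set by the 10-read minimum, at which 1 read moves a level by 10 points.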

Other observations

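Marker lists of other cell types were measured in the same regions. Of 6 neuronal markers, 2 were measured. Tubb3, a tubulin of neurons, had 26.5% ± 4.75 in MEF-1 and 47.5% ± 5.69 in MEF-2 clonal lines (SD, n = 7 each; quasi-binomial test, adjusted over all genes), and Rbfox3 had 3.71% ± 2.59 and 6.04% ± 4.16. Tubb3 passed the test and Rbfox3 did not. Of 5 epithelial markers, 3 were measured and all were called higher in MEF-1 (26% of all genes). Krt18, a keratin, had 48.8% ± 4.54 and 30.2% ± 3.82, Krt8 had 95.9% ± 2.59 and 82.0% ± 6.57, and Cdh1, which encodes E-cadherin, had 31.7% ± 7.19 and 18.2% ± 5.83 (adjusted p = 4.1e-05, 0.00064 and 0.0068). Of 4 blood cell markers, 2 were measured, at 54.8 to 85.2% over all libraries, and none was called. Their part in the protocadherin results was not tested.

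Of the 3000 member CpGs, 452 lay in 100-base stretches whose converted sequence recurs within the protocadherin stretch. Recurrence elsewhere in the reference was not searched for. Most of the 452 CpGs lay in the alpha exons and the gamma B genes. Without them, 29 members were called between the families (42.1% of all genes), and Pcdha10 differed by −11.5 points in place of −17.1.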
